A study of Mus musculus with 6 samples.

Results

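The genes described here are the angiomotins and the YAP effectors of the Hippo pathway, 10 of the 34714 gene symbols counted in gastrocnemius (Gas) muscle. They were taken by symbol as the angiomotins Amot, Amotl1 and Amotl2, the kinases Lats1 and Lats2, the coactivators Yap1 and Wwtr1, the DNA-binding partners Tead1 and Tead4, and the muscle target gene Ankrd1. All 10 passed the filter on low counts, which left 15788 genes for the comparison between genotypes. They were selected on results of this same comparison, with the low Amotl2 level of M92KO muscle already known, so the members' differences between genotypes are given as a description, without a test.

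RNA was sequenced from the Gas of 3 wild-type (WT) mice and 3 miR-92b knockout (M92KO) mice, aged 8 weeks and untreated. M92KO mice lacked miR-92b in every tissue (miR-92b-/-, on C57BL/6JGpt), and the methods describe male mice with C57BL/6 controls matched for age, without stating that they were littermates. Mir92b itself was not analysed here, so the genotype labels were not checked against the deleted gene. Because the deletion was global and the tissue was whole muscle, a lower level in these bulk libraries can mean fewer cells of a type or less RNA in each cell, and these cannot be told apart.

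Library totals ran from 33160508 to 48209846 counts, and the largest M92KO total lay below the smallest WT total, so depth and genotype cannot be told apart. The library M92KO 1 stood apart from the other 5. On the second principal component (25.8% of the variance) it lay at 37.7, whereas the others lay between -16.1 and 6.00. Values without this library are therefore given beside the results that rest on it. Across all genes, edgeR's quasi-likelihood test called 1955 of 15788 at an unadjusted p under 0.05 (863 higher and 1092 lower in M92KO) and none after Benjamini-Hochberg adjustment, with a smallest adjusted p of 0.124, whereas DESeq2 called 312. Without M92KO 1, the edgeR count was 2984 unadjusted and 401 adjusted.

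The Hippo pathway is a kinase cascade that restrains growth. The MST kinases activate the LATS kinases, which phosphorylate the coactivators YAP (Yap1) and TAZ (Wwtr1) and keep them out of the nucleus. When this brake is off, YAP and TAZ bind TEAD transcription factors and switch on target genes, among which Amotl2 itself is one, as are Ccn1, Ccn2 and, in muscle, Ankrd1. Angiomotins are scaffold proteins at cell junctions and on actin that bind YAP and TAZ directly and also promote LATS activity. In skeletal muscle the pathway is known for its responses to load and for its role in satellite cells, the muscle stem cells.

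The deleted hairpin yields a pair of mature miRNAs, shown here because their seeds (bases 2 to 8, in capitals) define which members carry a match. Both lie on the minus strand of chromosome 3 in RefSeq's GRCm38.p6 table, the 3p arm at chr3:89227126-89227147 and the 5p arm at chr3:89227165-89227188.
miR-92b-3p: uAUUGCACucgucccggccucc
miR-92b-5p: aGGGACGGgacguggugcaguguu
In the annotated 3′-UTRs of the 10 members, a 7-base match to the 3p seed occurred in Tead1 and Lats2, and a match to the 5p seed occurred in Amotl1. Amotl2 had no match to either seed in its 3 transcripts with a 3′-UTR. The sites are printed from GENCODE M21 transcripts (GRCm38), with the bases that pair with the seed in capitals, from chr7:112906596-112906615 (plus strand), chr14:57690930-57690949 (minus strand) and chr9:14544443-14544462 (minus strand).
Tead1 (3p): tgacagttaaGTGCAATtat
Lats2 (3p): caagacgtctGTGCAATaag
Amotl1 (5p): ctgtgttgttCCGTCCCgca
Among 20935 genes with an annotated 3′-UTR, 6.96% held a match to the 3p seed and 3.07% a match to the 5p seed. A match of letters is a description of these sequences and not a measured binding site.

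Among the angiomotins, Amotl2 was the member with the lowest M92KO level relative to WT, Amot was somewhat higher in M92KO libraries other than M92KO 1, and Amotl1 did not separate the genotypes. Amotl2 (ENSMUSG00000032531, chr9:102716672-102733418, plus strand) encodes a scaffold that ties junctional cadherins to actin. Levels are given as CPM, counts scaled to a common library size after TMM normalization, in the order of libraries 1, 2 and 3. Amotl2 measured 52.1, 63.3 and 84.0 CPM in WT and 30.4, 31.6 and 31.5 CPM in M92KO. The lowest WT library thus lay above the highest M92KO library, and the M92KO libraries lay within a narrow band while the WT libraries spread widely. The group means were 66.5 ± 16.2 and 31.2 ± 0.680 CPM (SD, n = 3), so M92KO stood at 46.9% of WT, from raw counts of 2405, 2446 and 4009 against 1055, 1034 and 1145. On the log2 scale the fitted difference was -1.09 with a standard error of 0.15, the 103rd lowest of the 15788 genes. It ranged from -1.24 to -0.89 when single libraries were left out and was -1.08 without M92KO 1.

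Amot (ENSMUSG00000041688, chrX:145446425-145505181, minus strand), the founding angiomotin, measured 119.7, 114.2 and 117.9 CPM in WT and 109.8, 162.7 and 153.2 CPM in M92KO. M92KO 1 lay below all WT libraries and the other M92KO libraries lay above them, so the groups overlapped. The log2 difference was 0.27 (standard error 0.13), 0.43 without M92KO 1 and 0.16 without M92KO 2. Amotl1 (ENSMUSG00000013076, chr9:14541966-14645056, minus strand), a paralog found at tight junctions, measured 371, 341 and 354 CPM in WT and 264, 411 and 373 CPM in M92KO. Here too M92KO 1 was the lowest library, and the log2 difference was -0.03 (standard error 0.15) with it and 0.14 without it. Amotl1 was the only member whose difference took both signs over the 13 alternative settings tried, with a range of -0.16 to 0.14.

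**Figure D1:**
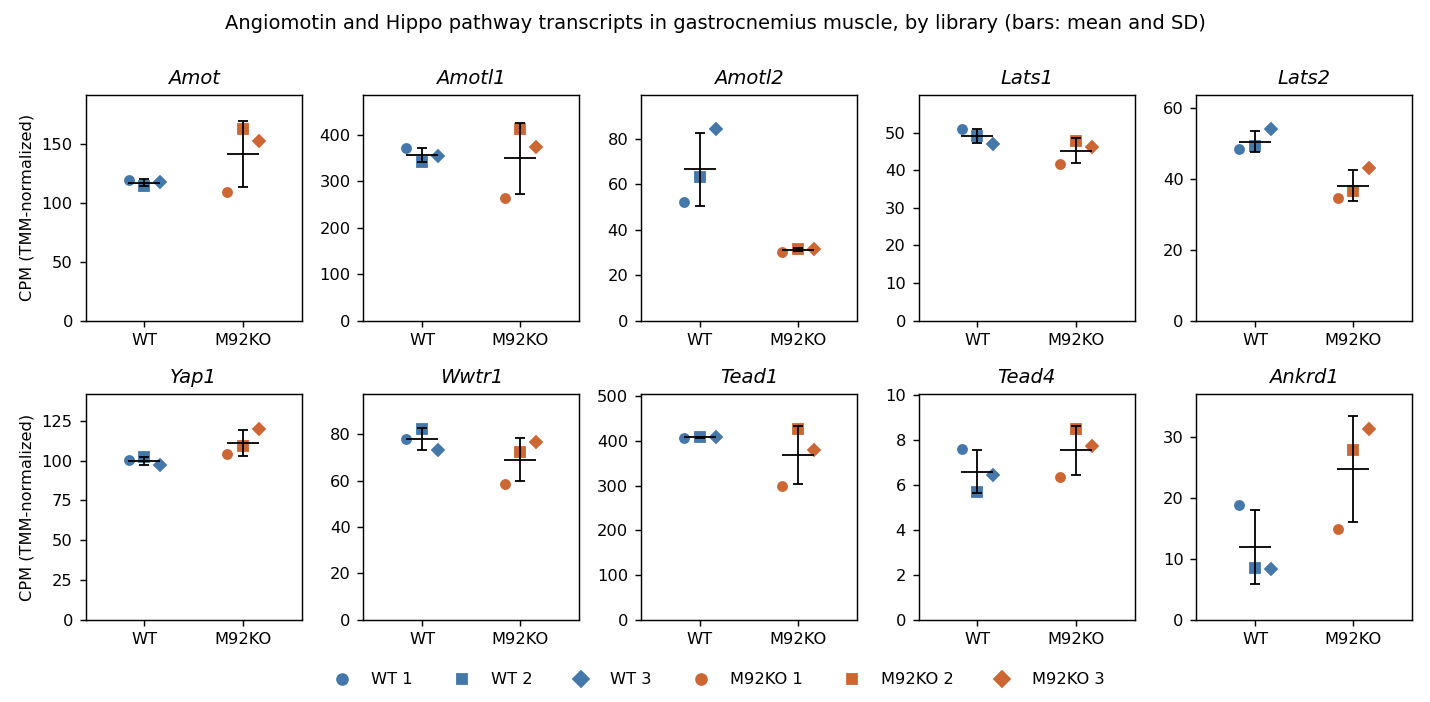
CPM (TMM-normalized, linear axes from 0) of the 10 members in each of the 6 libraries, with WT in blue and M92KO in orange, and the mean and SD of each group in black. Amotl2 and Lats2 were lower and Yap1 higher in all 3 M92KO libraries than in any WT library, while M92KO 1 (orange circle) lay lowest of its group for every member.

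To set different genes side by side, levels were divided by merged exon length, so their order depends on the annotated exons. On this scale Amotl1 was the most abundant angiomotin transcript at 35.3 ± 1.48 CPM per kb in WT. Amot followed at 14.0 ± 0.339 and Amotl2 at 10.6 ± 2.58 CPM per kb. The summed level of the family was 59.9 ± 2.55 CPM per kb in WT and 56.5 ± 11.1 in M92KO, with overlapping groups (57.6 to 62.6 against 44.1 to 65.2). Within that sum the makeup differed. Amotl2 made up 13.9%, 17.5% and 21.3% of the family in WT and 10.96%, 7.70% and 8.32% in M92KO. Amot made up 24.0%, 23.6% and 22.4% in WT and 29.6%, 29.7% and 30.3% in M92KO, whereas the share of Amotl1 was 59.1% ± 2.92 and 61.2% ± 1.63. The ratio of Amot to Amotl1 varied little within either group, at 0.387, 0.401 and 0.399 in WT and 0.499, 0.474 and 0.493 in M92KO. M92KO 1, low for Amot and for Amotl1 alike, therefore fell with its own genotype once the paralogs were set against each other. Such ratios show unequal differences between paralogs and do not say which of them changed. Separation was not particular to this pair, since every paralog ratio computed among the members separated the genotypes. That of Tead4 to Tead1, whose own levels each overlapped, was 0.0703, 0.0526 and 0.0598 in WT and 0.0803, 0.0751 and 0.0771 in M92KO. How often ratios of gene pairs outside the members separate the genotypes was not tested.

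**Figure D2:**
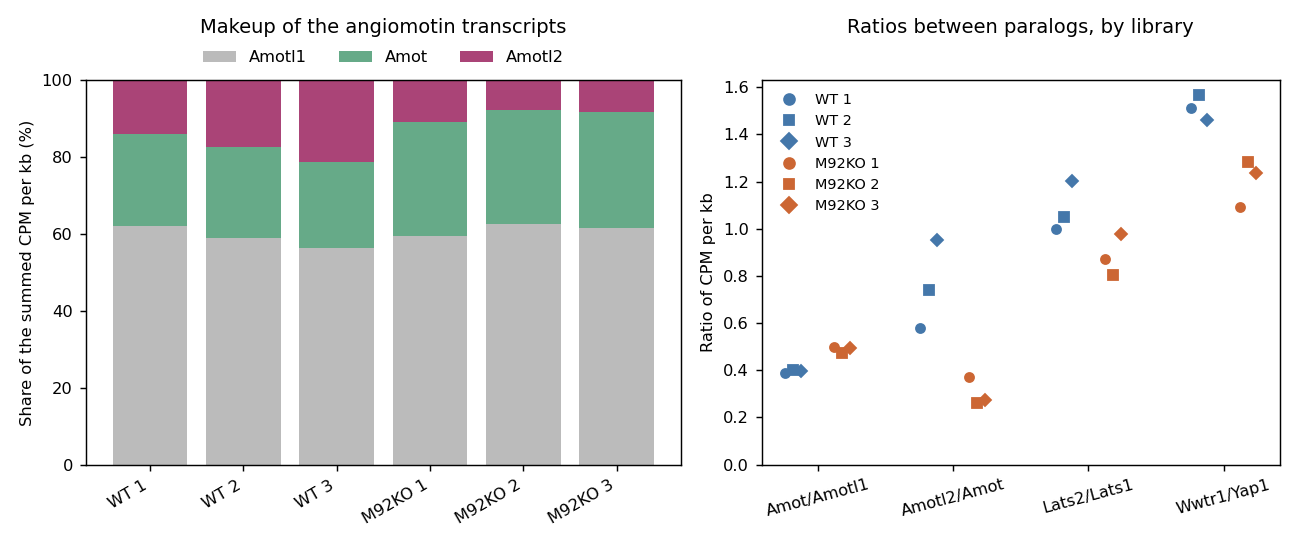
Left, share of each angiomotin in the summed CPM per kb of the family, one bar per library. Right, ratios of CPM per kb between paralogs in each library, with WT in blue and M92KO in orange, in which the Amot to Amotl1 ratio is 0.395 ± 0.0076 in WT and 0.488 ± 0.0130 in M92KO, and the Amotl2 to Amot ratio is lower in every M92KO library.

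Of the kinases, Lats2 was lower in M92KO and Lats1 was not separated. Lats2 (ENSMUSG00000021959, chr14:57689662-57758388, minus strand), which is a YAP target as well as a YAP kinase, measured 48.5, 49.3 and 54.0 CPM in WT and 34.6, 36.7 and 43.0 CPM in M92KO. No M92KO library reached the lowest WT library, and the mean stood at 75.3% of WT (50.6 ± 2.99 against 38.1 ± 4.41 CPM). Its log2 difference was -0.41 (standard error 0.09), and -0.34 without M92KO 1. Its exons overlap those of Gm49361 on the same strand, so reads counted for either gene may be shared. Lats1, the paralogous kinase, measured 50.8, 49.2 and 47.0 CPM in WT and 41.6, 47.8 and 46.1 CPM in M92KO, with overlapping groups and a log2 difference of -0.12 (standard error 0.07) that was -0.06 without M92KO 1. Per kilobase, the Lats2 to Lats1 ratio was 1.08 ± 0.106 in WT and 0.883 ± 0.0877 in M92KO, and the highest M92KO value (0.977) lay just below the lowest WT value (0.999).

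The coactivators leaned in opposite directions. Yap1 (ENSMUSG00000053110, chr9:7931999-8004596, minus strand) measured 100.1, 102.1 and 96.9 CPM in WT and 103.8, 109.1 and 120.1 CPM in M92KO. The groups did not overlap, but the gap between them was small, and the log2 difference of 0.16 (standard error 0.07) was 0.20 without M92KO 1 and 0.10 without M92KO 3. Exons of Gm20416 overlap those of Yap1 on the opposite strand, and since the strandedness of the counting is not given, their reads may be mixed. Wwtr1, the gene of TAZ, measured 78.1, 82.4 and 73.0 CPM in WT and 58.5, 72.3 and 76.5 CPM in M92KO, with overlapping groups and a log2 difference of -0.17 (standard error 0.10) that was -0.07 without M92KO 1. Per kilobase, Wwtr1 exceeded Yap1 in every library, by a ratio of 1.51, 1.56 and 1.46 in WT and 1.09, 1.28 and 1.23 in M92KO. The ratio was thus smaller in each M92KO library than in any WT library, and the other paralog ratios computed also separated the genotypes. In CPM, Yap1 exceeded Wwtr1 in every library. The order per kilobase thus rests on merged exon lengths, 4779 bases for Wwtr1 and 9257 for Yap1.

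Of the TEAD factors, which carry YAP and TAZ to DNA, Tead1 was the more abundant in Gas muscle, at 30.1 CPM per kb in WT against 1.83 for Tead4. Tead1 measured 407, 408 and 409 CPM in WT, the closest agreement of any member, and 299, 428 and 380 CPM in M92KO. The M92KO libraries lay on both sides of WT, and the log2 difference of -0.15 (standard error 0.12) was -0.02 without M92KO 1 and -0.27 without M92KO 2. Tead4, known from myogenic differentiation, measured 7.60, 5.70 and 6.48 CPM in WT and 6.36, 8.52 and 7.77 CPM in M92KO, with overlapping groups and a log2 difference of 0.19 (standard error 0.15). That difference was 0.30 without M92KO 1 and 0.10 without either WT 2 or M92KO 2.

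Ankrd1, a titin-binding ankyrin repeat protein of the sarcomere that is induced by stretch and by YAP, was the only member besides Amotl2 with a log2 difference beyond 1 in size, but its libraries scattered. It lies at chr19:36111961-36120099 on the minus strand (ENSMUSG00000024803) and measured 18.9, 8.54 and 8.42 CPM in WT and 14.9, 28.0 and 31.5 CPM in M92KO. WT 1 was higher than M92KO 1, so the groups overlapped, while M92KO 2 and 3 lay above every WT library. The log2 difference was 1.05 (standard error 0.36), ranging from 0.84 to 1.55 when single libraries were left out and reaching its highest value without WT 1.

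As a list, 3 of the 10 members had groups that did not overlap, 2 of them lower in M92KO (Amotl2 and Lats2) and 1 higher (Yap1). Over all genes tested, 18.4% had groups that did not overlap, 9.58% with M92KO lower and 8.77% with M92KO higher. Because the members were chosen with this comparison known, nothing is read from their count against that background. The median log2 difference of the members was -0.07, beside -8.07e-05 over all genes, with 6 members below 0 and 4 above. In order of level per kilobase in WT, Amotl1 (35.3 CPM per kb) was followed by Tead1 (30.1), Wwtr1 (16.3), Amot (14.0), Yap1 (10.8), Amotl2 (10.6), Lats2 (7.26), Lats1 (6.71), Ankrd1 (4.14) and Tead4 (1.83). Yap1 and Amotl2 could not be ordered within their spread, and the ranges of Lats1 and its neighbours Lats2 and Ankrd1 met in the same way, while the other neighbours in this order had separate ranges. In M92KO, Amotl2 ranked 9th with 4.96 ± 0.108 CPM per kb and Ankrd1 ranked 6th with 8.59 ± 3.02. Their ranks in WT were 6 and 9. Both orders rest on the merged length of all annotated exons, which can exceed that of the transcript expressed in muscle.

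The promoters of Amotl2 and Ankrd1 are printed because both are known YAP and TEAD targets. Their mean levels in M92KO lay on opposite sides of the WT means, with overlapping groups for Ankrd1. They run from 250 bases before to 50 bases after the RefSeq start (GRCm38.p6), at chr9:102717554-102717853 (plus strand) and chr19:36119795-36120094 (minus strand). Capitals mark the core of the TEAD element, CATTCC, or its reverse complement GGAATG.
Amotl2: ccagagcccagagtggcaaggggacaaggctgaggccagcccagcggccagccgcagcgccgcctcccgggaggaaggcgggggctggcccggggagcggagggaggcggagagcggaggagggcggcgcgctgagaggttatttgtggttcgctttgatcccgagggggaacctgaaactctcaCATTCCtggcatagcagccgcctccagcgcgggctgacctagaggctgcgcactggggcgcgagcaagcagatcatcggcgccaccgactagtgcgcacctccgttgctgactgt
Ankrd1: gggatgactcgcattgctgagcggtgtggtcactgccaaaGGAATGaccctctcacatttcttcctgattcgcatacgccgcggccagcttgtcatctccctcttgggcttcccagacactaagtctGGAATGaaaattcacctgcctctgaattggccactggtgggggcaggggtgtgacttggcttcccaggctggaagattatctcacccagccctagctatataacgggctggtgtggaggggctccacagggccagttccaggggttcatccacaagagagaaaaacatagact
The Amotl2 promoter held the core once, with its first base at position -65 from the start, preceded by A so that it also matched the longer form ACATTCC, which contains the core. The Ankrd1 promoter held it at positions -210 and -123 on the other strand. RefSeq promoters were at hand for 8 of the 10 members, not for Tead1 and Tead4, and 5 of the 8 (Amotl2, Yap1, Wwtr1, Lats2 and Ankrd1) held the core on either strand. Of all 27025 genes with a promoter, 16.6% held the core and 4.47% the longer form. The core stood in promoters of 4 of the 12 other YAP and TAZ target genes that had one. These matches are letters in a window and say nothing of whether a TEAD factor was bound.

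The wider pathway was described from 5 gene lists, 80 distinct genes of which 76 were tested. The lists were written from the known pathway but with earlier results of these data known, so their counts are a description. At an unadjusted edgeR p under 0.05, 11 of the 76 genes were lower and 4 higher in M92KO, where over all genes tested 12.4% passed, 5.47% higher and 6.92% lower. After adjustment over all genes edgeR called none of the 76. DESeq2 called 4 of them, with an adjusted p of 0.00229 for Csrp3, 0.00621 for Ankrd2, 0.0139 for Plekhg5 and 0.0442 for Map4k4. Over all settings tried, the adjusted p of these genes ran up to 0.607, 0.678, 0.578 and 0.590, and the DESeq2 value was the lowest except for Ankrd2, at 0.0040 in the edgeR fit without M92KO 1. Without M92KO 1, edgeR called 6 after adjustment, all higher (Csrp3, Ankrd2, Xirp1, Xirp2, Fhl1 and Tgfb2), and Csrp3 and Ankrd2 were in both sets of calls.

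Upstream of LATS, 5 of 29 tested kinases and regulators were lower in M92KO at the unadjusted threshold and none was higher, with a median log2 difference of -0.05. Map4k4, a kinase that activates LATS in parallel with MST, measured 51.8, 55.5 and 50.8 CPM in WT and 40.6, 44.8 and 42.9 CPM in M92KO (log2 difference -0.30, standard error 0.07, edgeR adjusted p = 0.186). Dchs1, a giant cadherin of the Fat system, stood at 74.3% of WT (log2 difference -0.43, edgeR adjusted p = 0.276), and the kinase Map4k3 at 86.0% (-0.22, edgeR adjusted p = 0.281). For Map4k4 and Dchs1 the threshold was passed in all 6 fits that left out a library, and for Map4k3 in 5 of them, with WT 2 as the exception (-0.18). The other genes past the threshold were the LATS cofactor Mob1a (-0.33) and the scaffold Wwc2 (-0.26, named after its values were seen). Mob1a lost it without WT 1 or WT 3, and Wwc2 lost it without WT 1, WT 2 or M92KO 1. Without M92KO 1 the log2 differences were -0.26 for Map4k4, -0.30 for Dchs1, -0.20 for Map4k3, -0.18 for Mob1a and -0.16 for Wwc2. The core of the cascade showed small differences that missed the threshold, with log2 values of -0.09 for the MST kinase gene Stk3, -0.17 for Stk4, 0.04 for their partner Sav1 and 0.02 for Nf2. Mob1b spread from 11.7 CPM in M92KO 1 to 30.7 CPM in M92KO 2, around 19.5 to 23.9 CPM in WT. Leaving out WT 1 or WT 2 brought the list's count to 3, and leaving out M92KO 1 brought it to 7, of which 1 was higher.

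Among the proteins that bind angiomotins at junctions or mark them for turnover, 1 of 19 tested genes was lower and none was higher at the unadjusted threshold. That gene was Plekhg5 (Syx), a RhoA exchange factor that angiomotin carries to junctions. It measured 26.9, 35.4 and 33.1 CPM in WT and 23.9, 22.4 and 22.5 CPM in M92KO, with no overlap (log2 difference -0.47, standard error 0.11, edgeR adjusted p = 0.179). Cdh5, the endothelial cadherin that AMOTL2 links to actin, was named after its values were seen and measured 237, 253 and 224 CPM in WT and 188, 235 and 195 CPM in M92KO, with overlapping groups. The count of this list depended on single libraries, at 2 without WT 3 (1 higher), 4 without M92KO 1 (3 higher) and 5 without M92KO 2 (1 higher).

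**Figure D3:**
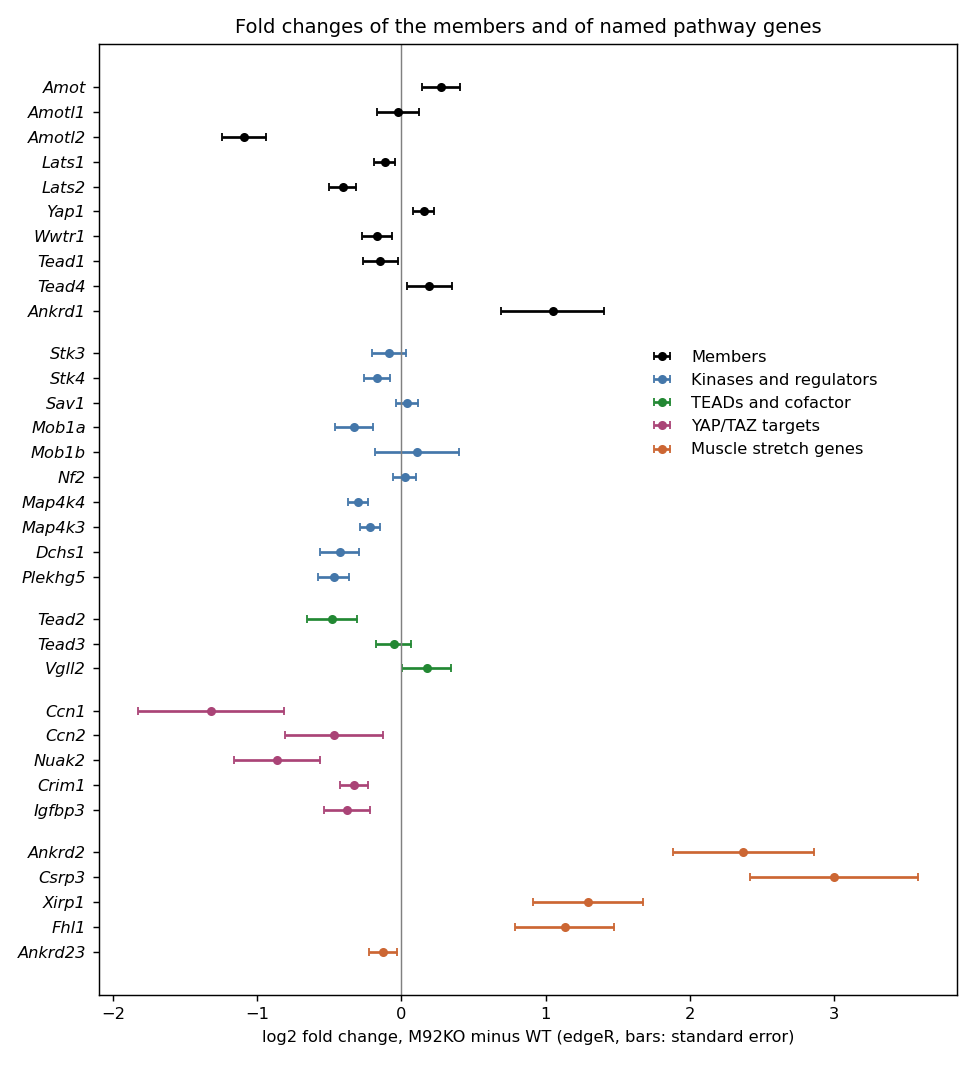
Fitted log2 fold change (M92KO minus WT, edgeR) of the 10 members and of named pathway genes, with bars for the standard error and colours for the gene group. Amotl2 lies at -1.09, and the 5 YAP/TAZ targets shown lie at or below -0.33 where the median of all 18 tested targets is -0.07 and 11 of the 18 are below 0, while Csrp3, Ankrd2, Xirp1 and Fhl1 lie between 1.13 and 3.004.

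Of the YAP and TAZ target genes outside the members, 4 of 18 tested were lower in M92KO at the unadjusted threshold and none was higher, and the median over the list was -0.07. The matricellular gene Ccn1 measured 35.3, 92.4 and 207.5 CPM in WT and 42.5, 52.3 and 39.2 CPM in M92KO. The WT libraries alone spanned more than the distance between the groups, WT 1 lay below every M92KO library, and the log2 difference of -1.32 (standard error 0.51, edgeR adjusted p = 0.354) was -0.51 without WT 3. Ccn2, its relative and a classical YAP readout, measured 13.9, 26.7 and 31.7 CPM in WT and 11.2, 16.2 and 24.9 CPM in M92KO, and it missed the threshold (-0.47, standard error 0.34). Its difference was -0.22 without WT 3, -0.23 without M92KO 1 and -0.82 without M92KO 3, and it passed without WT 1 (-0.75) and without M92KO 3. The stress kinase gene Nuak2 was low throughout, at 2.42, 4.22 and 4.71 CPM in WT and 1.55, 1.89 and 2.78 CPM in M92KO (-0.86, edgeR adjusted p = 0.314), and the groups overlapped. Crim1, a transmembrane protein that binds BMPs, was the only one of the 4 whose groups did not overlap, at 53.9, 67.1 and 56.5 CPM in WT against 43.3, 48.0 and 50.1 CPM in M92KO (-0.33, edgeR adjusted p = 0.258). Igfbp3, named after its values were seen, stood at 76.8% of WT with overlapping groups. Ccn1, Nuak2 and Igfbp3 each kept the threshold in 2 of the 6 fits that left out a library, and Crim1 in all 6. The list's count was 2 without WT 2 or M92KO 2 and 1 without WT 3, and without M92KO 1 it was 5, of which 2 were higher, among them Tgfb2 (0.53). In Ccn1, Ccn2 and Nuak2 as in Amotl2, WT 1 was the lowest and WT 3 the highest WT library.

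Of the other TEAD factors and the vestigial-like cofactors that compete with YAP for them, 1 of 5 tested was past the unadjusted threshold. Tead2 measured 4.05, 4.92 and 4.002 CPM in WT and 2.62, 2.96 and 3.69 CPM in M92KO (log2 difference -0.48, standard error 0.17, edgeR adjusted p = 0.336), and it missed the threshold without WT 2, M92KO 1 or M92KO 2. Without WT 1, 2 genes of this list were past it. Tead3 stood at -0.05, and Vgll2, the skeletal muscle member of the vestigial-like family, at 0.17.

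The genes that share Ankrd1's family or its response to stretch had the largest median difference of the 5 lists. At the unadjusted threshold 4 of 6 were higher in M92KO and none was lower, with a median log2 difference of 1.21. Csrp3, the muscle LIM protein of the Z-disc, measured 49.5, 81.3 and 36.8 CPM in WT and 126, 764 and 454 CPM in M92KO (log2 difference 3.004, standard error 0.58, edgeR adjusted p = 0.179). Ankrd2, the closest relative of Ankrd1 in skeletal muscle, measured 116, 161 and 88.6 CPM in WT and 208, 994 and 695 CPM in M92KO (2.37, standard error 0.49, edgeR adjusted p = 0.179). For both genes every M92KO library lay above every WT library. Xirp1, an actin-binding protein of the myotendinous junction and of damaged fibres, measured 221, 170 and 209 CPM in WT and 201, 528 and 740 CPM in M92KO (1.29, edgeR adjusted p = 0.256). M92KO 1 was the lowest M92KO library for all of these, and for Xirp1 and Fhl1 it lay within the WT range. Fhl1, a LIM protein of the sarcomere named after its values were seen, had a log2 difference of 1.13 and an edgeR adjusted p of 0.258. All 4 kept the threshold in each of the 6 fits that left out a library. Their relatives Xirp2 (0.33) and Ankrd23 (-0.13), also named after their values were seen, missed it. Without M92KO 1 the differences of Csrp3 and Ankrd2 were 3.45 and 2.79, and Xirp2 was a 5th gene past the threshold. Without M92KO 2 the differences were 2.38 for Csrp3, 1.89 for Ankrd2 and 0.78 for Fhl1, and without M92KO 3 that of Xirp1 was 0.87. Under the steps of the supplementary methods (quantile normalization and limma), Csrp3 and Ankrd2 were higher and Ankrd23 lower at the unadjusted threshold, and Xirp1 and Fhl1 missed it.

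**Figure D4:**
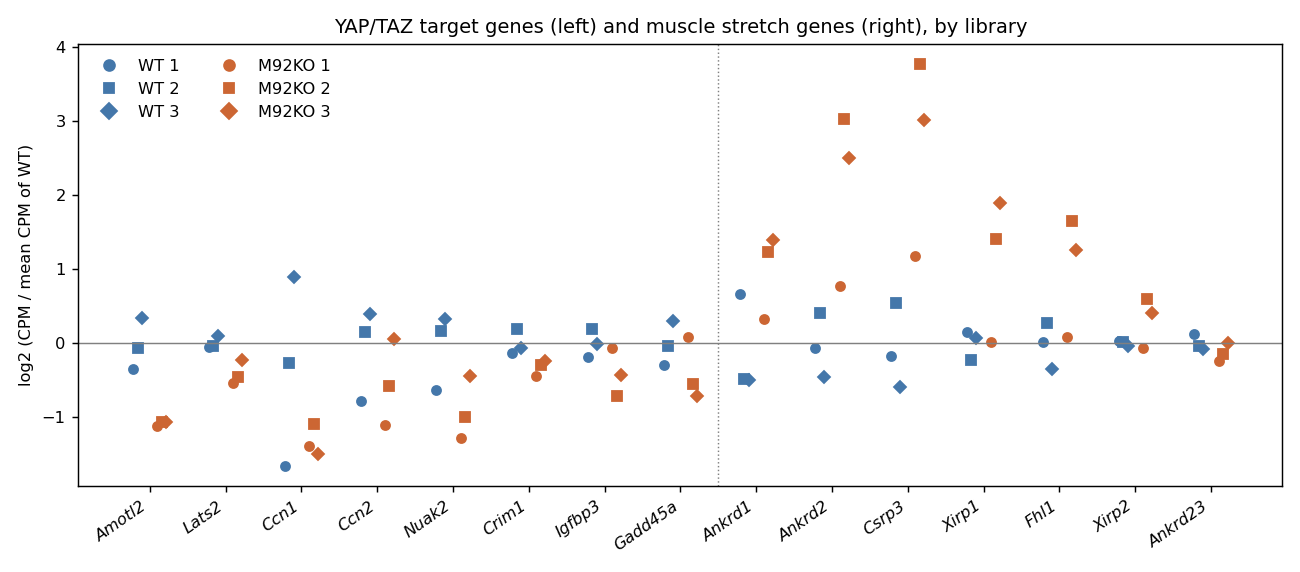
Level of each gene in each library relative to the WT mean (log2 of the CPM ratio), with Amotl2, Lats2 and some other YAP/TAZ target genes left of the dotted line and Ankrd1 with the muscle stretch genes right of it. The other targets shown were picked, and all have fitted log2 differences below 0. Of all 18 tested targets outside the members, 11 are below 0, with a median of -0.07. M92KO 2 and 3 (orange square and diamond) stand highest for Ankrd1, Ankrd2, Csrp3, Xirp1 and Fhl1, and M92KO 1 (orange circle) stands between them and WT or within WT.

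Whole muscle holds many cell types. Summed markers of fibroblasts, macrophages and satellite cells separated the genotypes, and the sums of the other lists overlapped. For single genes, 18.4% of all tested had groups that did not overlap, and how often sums of other lists separate was not tested. Over all genes tested, 5.47% were higher and 6.92% lower in M92KO at the unadjusted threshold. Endothelial cells are known to express Amotl2, and their 11 markers summed to 1328 to 1408 CPM in WT and 1170 to 1388 CPM in M92KO, with 2 of 11 (Tie1 and Flt1, log2 differences -0.23 and -0.21) lower at the unadjusted threshold. Fibroblast markers summed to 1773 to 2337 CPM in WT and 1207 to 1655 CPM in M92KO, with 3 of 8 lower, among them Dcn (-0.33). Of 7 tendon markers 4 were lower, with Kera at -1.62 and Tnmd at -0.91. All 7 had a log2 difference below 0, with a median of -0.71, the lowest of the marker lists. The tendon sums were 107 to 132 CPM against 95.7 to 117 CPM, and Kera and Tnmd averaged only 6.38 and 5.25 CPM in WT. Below 0 were also 7 of 8 fibroblast, 9 of 11 endothelial, 5 of 6 macrophage, 5 of 6 Schwann cell and 6 of 8 slow fibre markers. For fast fibres this count was 5 of 11, for pericytes and smooth muscle 2 of 6, and for satellite cells 1 of 4. Macrophage markers (1 of 6 lower) summed to 51.2 to 54.1 against 32.7 to 49.96 CPM, and Schwann cell markers (3 of 6 lower) to 132 to 181 against 132 to 138 CPM. Pericyte and smooth muscle markers, with 1 of 6 higher and 1 lower, summed to 1124 to 1188 against 998 to 1126 CPM. Satellite cell markers summed to more in each M92KO library than in any WT library, at 37.6 to 40.8 against 30.1 to 33.4 CPM, with Pax7 (0.56) and Cdh15 (0.32) higher and 1 of the 4 lower. Most of this sum was Cdh15, which averaged 21.6 CPM in WT and 27.1 CPM in M92KO. Slow fibre markers (none of 8 past the threshold) summed to 183 to 268 against 132 to 230 CPM, fast fibre markers (none of 11) to 148440 to 167177 against 147496 to 160754 CPM, and fat cell markers (none of 5 tested past it, all 5 with a log2 difference above 0) to 4.19 to 11.7 against 7.46 to 21.3 CPM. No marker of these lists was at 0 in all libraries, and the fast fibre markers were high in all 6 libraries. M92KO 1 had the lowest fibroblast, macrophage and slow fibre sums of all libraries. The part of these cell types in the differences of Amotl2, Lats2, Ankrd1 or the target genes was not tested. Beside the Amotl2 levels of 30.4, 31.6 and 31.5 CPM in M92KO 1, 2 and 3, the endothelial sums were 1187, 1388 and 1170 CPM, the first and the last of them below every WT library.

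**Figure D5:**
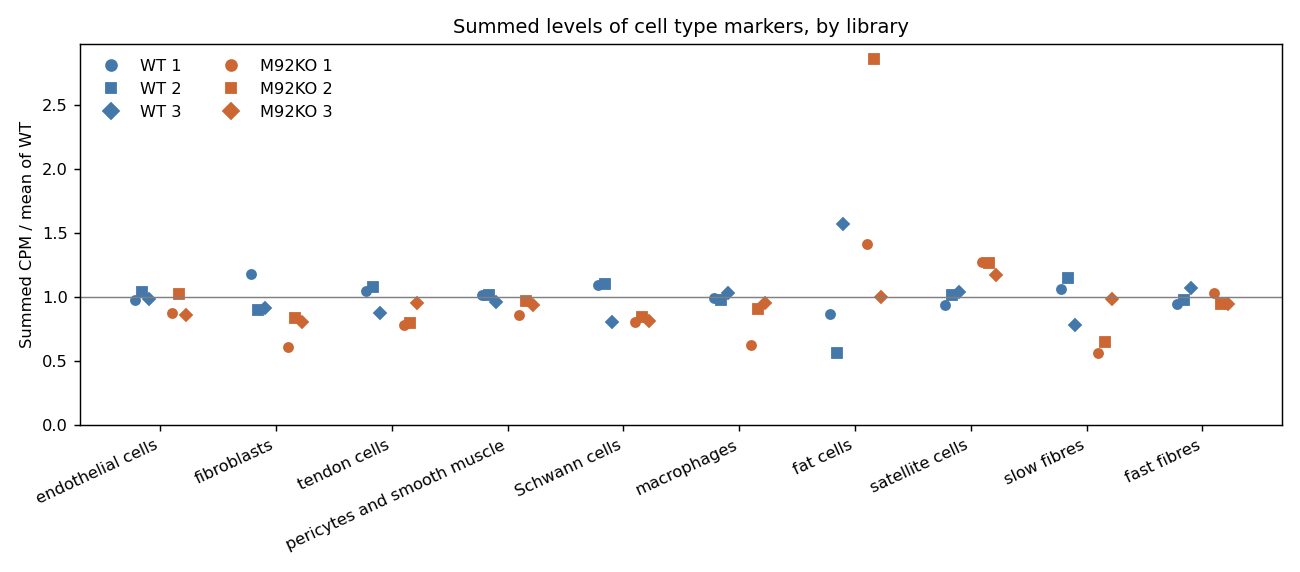
Summed CPM of each cell type marker list in each library, divided by the WT mean of that list. Fibroblast and macrophage sums are lower and satellite cell sums higher in all 3 M92KO libraries than in any WT library, while endothelial, slow fibre and fast fibre sums overlap.

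Genes whose profile over the 6 libraries was most like that of Amotl2, by Pearson's r of log2 CPM, were Pde4d (0.990), Angptl2 (0.990), Eef1aknmt (0.989), Psap (0.985) and Sgms1 (0.985). These 6 points share the group difference and the depth difference, so r is a description, and 79 of 15778 genes exceeded 0.95. Pde4d, a cyclic AMP phosphodiesterase, measured 289, 331 and 371 CPM in WT and 240, 253 and 242 CPM in M92KO, with WT 1 lowest and WT 3 highest in WT as for Amotl2, and a smaller distance between the groups.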

How the data were processed

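RNA from Gas muscle was sequenced after library preparation with a SMARTer kit, per the labels. The authors deposited raw counts of reads per gene symbol for each of the 6 libraries, and the submitters' processing notes name the build as GRCm38 (mm10). The aligner, counting program and strandedness are not given in the sources used here. Columns of all 6 libraries were used.

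Counts were analysed in R 4.3.3. Genes were kept with filterByExpr (minimum count 10, minimum total 15), normalized by TMM and compared with edgeR 4.0.16 (glmQLFit and glmQLFTest, 2 groups, no covariate), with Benjamini-Hochberg adjustment over all 15788 genes tested. CPM are on TMM library sizes, and CPM per kb divide by merged exon length (GENCODE M21). With 3 mice per group, p-values weigh each difference against the spread between these mice, with variances moderated across genes. They do not cover variation between litters, cohorts or batches, for which the fit had no term. Alternatives were DESeq2 1.42.0 (test and size factors), no filter, limma 3.58.1 after the normalization in the supplementary methods, a replicate block, GC and length offsets, and each library left out. The fits were checked on simulated counts.

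Members and lists were chosen with earlier results of these data known. Named genes were the members, from each list up to 3 genes with the smallest p in each direction, the kinase core and some classical targets fixed by name, and the 5 genes most like Amotl2. Of the symbols, 25731 matched GENCODE directly and 422 by a synonym.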

Additional observations from a re-analysis of the deposited data

How the results depend on the processing

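The log2 differences of the 10 members moved by less than the spread between replicates under each of the 13 alternatives, and only Amotl1 took both signs. Counts of genes moved more. At an adjusted p under 0.05, where edgeR called none, DESeq2 called 312, the steps of the supplementary methods 42 and the fit without a filter on low counts 6, and the counts with single libraries left out ran from 0 to 401, the highest without M92KO 1. At an unadjusted p under 0.05 they ran from 1222 (without WT 2) to 2984 (without M92KO 1) of the genes tested. Under the steps of the supplementary methods, 2 Hippo kinases and regulators, 1 YAP and TAZ target, 2 angiomotin partners, 0 other TEAD genes and 3 stretch genes (2 higher and 1 lower, against 4 higher) were past the unadjusted threshold, and without a filter 2 angiomotin partners were. With single libraries left out, the counts ran from 3 to 7 for Hippo kinases and regulators, 1 to 5 for YAP and TAZ targets, 1 to 5 for angiomotin partners and 0 to 2 for other TEAD genes. The cause of these shifts was not tested. Whether replicate numbers pair the libraries could not be told from correlations of deviations from the group means. For same-numbered libraries these were 0.081, 0.038 and 0.015. Every library except WT 3 correlated best with its own number, for M92KO 2 by a small margin (0.038 with WT 2 against 0.036 with WT 3). WT 3 correlated best with M92KO 2. A fit with the replicate number as a block called 2 genes after adjustment and 2 angiomotin partners unadjusted, and with GC and length offsets added to the block these counts were again 2 and 2. Counts of Amotl2 were above 1000 in every library, whereas Tead4, the member with the lowest counts, was under 10 CPM, and Vgll1, Foxf2, Wwc1 and Cgn were too low to be tested.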
